A study of Mus musculus with 2 samples.

Results

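The metalloproteinases and their tissue inhibitors were taken as all genes of the deposited tables whose symbol begins with Mmp, Adam, Adamts or Adamtsl followed by a number, or with Timp followed by 1 to 4. This gave 64 of the 16902 genes listed in at least 1 table: 19 MMP genes, 18 ADAM genes, 18 ADAMTS genes, 5 ADAMTS-like genes and 4 TIMP genes. The tables hold RNA-seq of EpCAM-positive epithelial cells from mouse mammary tumours. The PyMT;Zeb1cKO library, called the knockout library here, came from tumours with the polyoma middle T transgene (PyMT) and a conditional knockout of Zeb1, and the PyMT library from tumours with the transgene alone. There is 1 library per group, with 21277484 estimated counts in the knockout library and 21580274 in the PyMT library. The promoter of the transgene, the Cre line, the floxed exons, the strain, the age and the number of tumours pooled are not stated in the labels. Genotype and the tumour or animal behind a library cannot be told apart, no test between genotypes is possible, and every difference below is between these 2 libraries.

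Matrix metalloproteinases (MMPs) are zinc enzymes that cut collagens, proteoglycans and other proteins of the extracellular matrix, and some of them also cut growth factors and receptors. ADAMs are membrane-bound relatives that shed the outer parts of surface proteins, and ADAMTS enzymes are secreted relatives that cut proteoglycans, procollagens and other matrix proteins. TIMPs are small secreted proteins that block these enzymes, and the balance of enzymes and TIMPs sets how fast matrix is turned over. In mammary tumours many of these genes are made by stromal cells as well as by the tumour epithelium.

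The labels were checked on Zeb1 and Epcam. Zeb1, the targeted transcription factor, had 38 estimated counts in the knockout library and 96 in the PyMT library. Its count ratio (knockout over PyMT, each count divided by the total of its library) was 0.401, with a 95% counting interval of 0.268 to 0.59. It sums over all exons, so reads from the deleted exons cannot be told from the rest. Epcam, which encodes the surface antigen of the cell sort, was at 479.7 FPKM in the knockout library and 740.8 FPKM in the PyMT library. FPKM, the authors' deposited value, is the number of fragments per kilobase of gene, scaled to the depth of the library. The 10 fibroblast markers were all present in both libraries, with a summed level of 658.4 FPKM in the knockout library and 527.2 FPKM in the PyMT library. Which cells of the sorted samples this RNA came from was not tested. In such bulk samples, fewer cells of a type and less RNA per cell cannot be told apart.

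Of the 64 genes, 32 reached an FPKM of 1 in either or both libraries. Among these 32, 13 were at least 2-fold lower and 2 at least 2-fold higher in the knockout library on the log2(FPKM + 1) scale, and 17 lay within 2-fold. Of all 12653 genes with such a level, 8.78% were at least 2-fold lower and 10.2% at least 2-fold higher. The median log2 ratio was -0.68 for the 32 genes and 0.13 for all 12653. With no limit on low values it was -0.11 for the 64 genes and 0.06 for all 16902. A gene that reached the limit through the library where it is higher was bound to differ. This was so for 7 genes through the PyMT library and for Adamts18 through the knockout library. Of the other 24, which reached it in both, 9 were 2-fold lower and 1 was higher. The shares above are of genes that reached it in either library, and those of all genes that reached it in both were not computed. The pseudocount of 1 makes this scale understate the differences of low genes, so count ratios are given beside it. Among the 55 genes with at least 20 counts over both libraries, a rule added after the values were seen, 18 had a count ratio of at most 0.5 and 8 a count ratio of at least 2. Of all 14047 genes with that many counts, 12.3% were lower and 16.3% higher by this rule, and the median log2 count ratio was -0.45 for the 55 genes and 0.16 for all 14047. The share of higher genes among the metalloproteinase and TIMP genes was thus not above that of all genes, whereas the share of lower genes was above it by both rules.

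**Figure D1:**
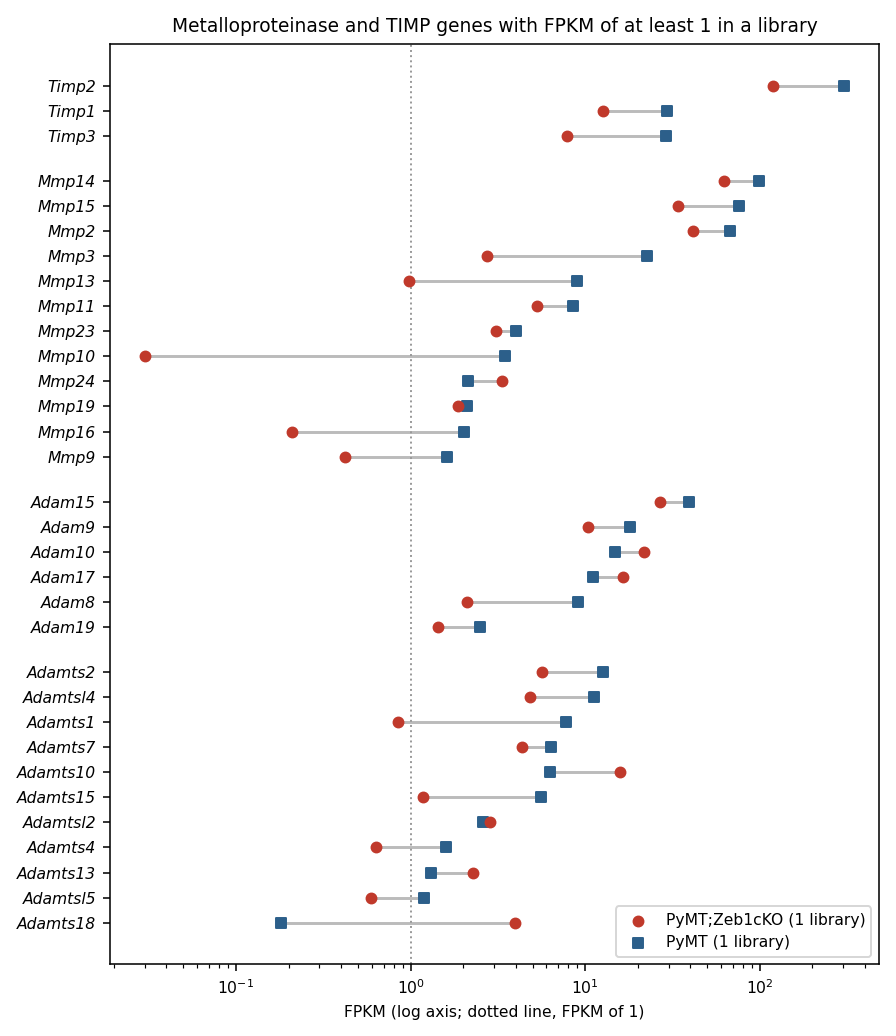
FPKM (log axis) of the 32 genes that reached an FPKM of 1 in either library, in the PyMT;Zeb1cKO library (red circles) and the PyMT library (blue squares), grouped by family, with 1 library per group and no error bar. The 3 TIMP genes all lie lower in the PyMT;Zeb1cKO library, and Adamts18 and Adamts10 are the 2 genes at least 2-fold higher there.

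A set of secreted MMP genes lies side by side on chromosome 9. The letters upstream of their starts are shown because 3 of these genes (Mmp3, Mmp13 and Mmp10) had 3 of the 4 lowest log2 ratios among the 32. Of these 3, Mmp13 and Mmp10 reached an FPKM of 1 through the PyMT library alone, so they were bound to be lower in the knockout library. The 7 listed genes of this cluster span 427.1 kb (chr9:7272514-7699585, GRCm38), in the order Mmp13, Mmp12, Mmp3, Mmp10, Mmp8, Mmp27 and Mmp7. RefSeq promoters (GRCm38.p6, 250 bases before to 50 bases after a start) were matched by gene ID for 42 of the 64 genes, all 7 of the cluster among them. They were searched on both strands for TGANTCA, the element bound by AP-1 factors, and for CACCTG, the E-box bound by Zeb1. TGANTCA stood in a promoter of 5 of the 7 cluster genes (9 promoters) and of 2 of the 35 other matched genes (38 promoters). It stood in 7.81% of all 32851 RefSeq promoters and in 5.29% of the 12468 promoters of genes that reached an FPKM of 1. These shares are per promoter, and a gene with several promoters has more places for a match. The windows below run from 100 bases before to 20 bases after the start of those 5 genes, all on the plus strand. Capitals mark TGANTCA and, near the end of the Mmp10 window, CACCTG on the other strand, and the 2 motifs do not overlap in these windows.
Mmp13 (chr9:7272414-7272533): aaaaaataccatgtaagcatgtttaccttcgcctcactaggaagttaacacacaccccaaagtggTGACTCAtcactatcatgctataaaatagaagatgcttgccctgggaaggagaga
Mmp12, second start (chr9:7347274-7347393): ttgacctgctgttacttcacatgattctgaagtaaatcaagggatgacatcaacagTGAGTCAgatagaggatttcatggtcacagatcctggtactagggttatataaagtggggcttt
Mmp3 (chr9:7445722-7445841): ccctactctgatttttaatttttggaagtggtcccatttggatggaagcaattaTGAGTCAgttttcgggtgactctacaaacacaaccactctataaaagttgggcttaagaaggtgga
Mmp10 (chr9:7502242-7502361): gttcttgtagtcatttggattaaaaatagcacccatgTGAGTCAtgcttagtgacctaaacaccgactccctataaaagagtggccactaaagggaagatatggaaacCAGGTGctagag
Mmp7, first start (chr9:7691990-7692109): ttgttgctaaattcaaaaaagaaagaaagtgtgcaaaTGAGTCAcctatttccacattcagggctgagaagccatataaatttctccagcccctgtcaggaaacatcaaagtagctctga
The element begins 35 bases before the start in Mmp13, 44 in Mmp12, 46 in Mmp3 and 63 in both Mmp10 and Mmp7. Mmp7, which holds the element, had 18 counts in the knockout library and 7 in the PyMT library. Mmp8, whose promoter holds none, had 1 and 27 counts in that order. CACCTG stood in the promoters of 4 of the 11 matched genes that were at least 2-fold lower (Mmp10, Mmp15, Timp2 and Timp3). Among all 42 matched genes it stood in 11 of 47 promoters (23.4%), also of genes that were not 2-fold lower, such as Adam19 and Adamts17. It stood in 20.2% of all 32851 promoters and in 18.4% of the 12468 promoters of genes that reached an FPKM of 1. A match of letters is not a measured binding site.

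Within the cluster, the stromelysins Mmp3 and Mmp10 and the collagenase Mmp13 were lower in the knockout library, and Mmp7 was the 1 gene with a count ratio above 1. Mmp3 (stromelysin-1), which cuts many matrix proteins and activates other MMPs, was at 2.74 FPKM in the knockout library and 22.6 FPKM in the PyMT library. Its count ratio was 0.123 (95% counting interval 0.098 to 0.152), and its log2 ratio of -2.66 was the lowest of the 32 genes. Mmp13, the main interstitial collagenase of the mouse, had 52 counts in the knockout library and 479 in the PyMT library, a count ratio of 0.11 (0.0811 to 0.147). Mmp10 (stromelysin-2) was nearly missing from the knockout library, with 1 count there and 115 in the PyMT library, a count ratio of 0.00882 (0.000221 to 0.0501). The width of this interval comes from the single count. The sum over the 7 cluster genes was 5.04 FPKM in the knockout library and 36.7 FPKM in the PyMT library.

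The other genes of the cluster stayed under an FPKM of 1 in both libraries. Mmp12, the macrophage metalloelastase, had 20 counts in the knockout library and 52 in the PyMT library, a count ratio of 0.39 (0.221 to 0.665). Mmp8, the neutrophil collagenase, had 1 count in the knockout library and 27 in the PyMT library. Neutrophil markers differed in the same direction: 6 of the 7 markers that reached an FPKM of 1 were at least 2-fold lower, and the 8 markers summed to 98.61 FPKM in the knockout library and 562.3 FPKM in the PyMT library. Csf3r, with 91 counts in the knockout library and 103 in the PyMT library, was the marker within 2-fold. Ltf, which epithelial cells also make, was at 81.2 FPKM in the knockout library and 281.2 FPKM in the PyMT library. Without it, a sum added after the values were seen, the markers came to 17.41 FPKM in the knockout library and 281.1 FPKM in the PyMT library. Most of these sums was S100a8 (14.99 FPKM in the knockout library and 225.8 FPKM in the PyMT library) and S100a9 (1.03 and 39.1 FPKM in that order). The cells that made the S100a8 and S100a9 RNA were not tested. The neutrophil granule genes Ngp, Camp and Elane were not listed for the knockout library and had 106, 15 and 2 counts in the PyMT library. For Elane, so few counts leave the difference open. The macrophage markers did not differ in this way, with none of 6 past 2-fold and sums of 384.8 FPKM in the knockout library and 476.2 FPKM in the PyMT library. The part of these cells in the Mmp8 and Mmp12 counts was not tested. Mmp7 (matrilysin), an MMP made by epithelial cells, had 18 counts in the knockout library and 7 in the PyMT library, a count ratio of 2.61 with a wide interval (1.04 to 7.39). Mmp27 had 2 counts and 1 count.

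**Figure D2:**
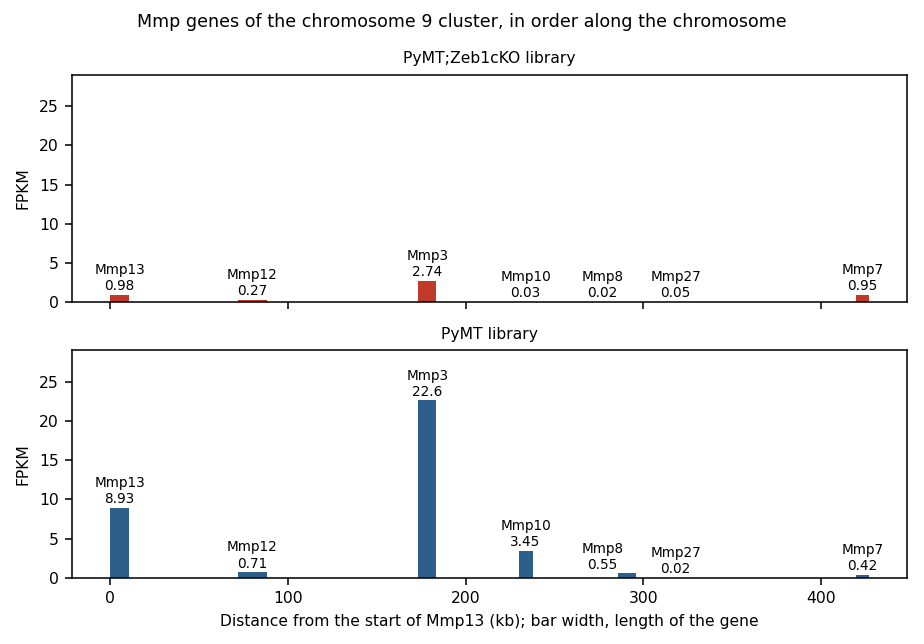
FPKM (linear axis, same scale in both panels) of the 7 listed Mmp genes of the chromosome 9 cluster in the PyMT;Zeb1cKO library (top) and the PyMT library (bottom), against the distance in kb from the start of Mmp13, with 1 library per group. Mmp3 stands at 2.74 FPKM in the PyMT;Zeb1cKO library and 22.6 FPKM in the PyMT library, and Mmp13, Mmp10, Mmp12 and Mmp8 are lower along with it.

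All 3 measured TIMP genes were lower in the knockout library, by 2-fold or more each, and the fourth was close to absent. Timp2 (chromosome 11, 118301061 to 118355411, GRCm38), the inhibitor that also helps the membrane enzyme Mmp14 to activate Mmp2, was the most abundant of all 64 genes per length in both libraries. It was at 119.2 FPKM in the knockout library and 304.1 FPKM in the PyMT library, and its large counts (8778 and 22612) put the ratio at 0.394 (0.384 to 0.404). Timp3 (chromosome 10, 86300412 to 86349505), which binds to the matrix and also blocks Adam17, was at 7.85 FPKM in the knockout library and 29.14 FPKM in the PyMT library, a count ratio of 0.27 (0.249 to 0.293). Timp3 shares 1733 exonic bases with Syn3 on the opposite strand in the GENCODE annotation, and Syn3 was at 0.26 FPKM in the knockout library and 0.25 FPKM in the PyMT library. Timp1 (X chromosome, 20870166 to 20874737), an inhibitor induced by inflammatory signals, was at 12.56 FPKM in the knockout library and 29.23 FPKM in the PyMT library, a count ratio of 0.439 (0.37 to 0.521). The 3 intervals show that the Timp3 ratio was below the others by more than counting error, while those of Timp1 and Timp2 overlapped. Timp4 had 3 counts in the PyMT library and was not listed for the knockout library.

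Mmp14 and Mmp2, both abundant, were lower by less than any of the 3 TIMP genes. Mmp14 (MT1-MMP), a membrane-anchored collagenase and the activator of Mmp2, was at 62.22 FPKM in the knockout library and 98.25 FPKM in the PyMT library, a count ratio of 0.636 (0.613 to 0.659). The gelatinase Mmp2, which cuts denatured collagen and basement membrane, was at 41.33 FPKM in the knockout library and 67.2 FPKM in the PyMT library, with a nearly equal ratio of 0.618 (0.588 to 0.65). Mmp15 (MT2-MMP), a close relative of Mmp14, was lower, with 3011 counts in the knockout library and 6759 in the PyMT library and a ratio of 0.452 (0.433 to 0.472). The 3 genes made up 87.0% of the summed MMP level (FPKM) in the knockout library and 80.7% in the PyMT library.

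These shifts changed the proportion of TIMP to MMP messages within each library, a quantity that no scaling between libraries can alter. The TIMP genes summed to 139.6 FPKM in the knockout library and 362.6 FPKM in the PyMT library, and the MMP genes to 158.0 FPKM in the knockout library and 298.5 FPKM in the PyMT library. The TIMP sum was thus 0.883 of the MMP sum in the knockout library and 1.21 of it in the PyMT library. Timp2 alone made up 85.4% of the TIMP sum in the knockout library and 83.9% in the PyMT library, so this proportion mostly follows Timp2. Timp2 was 1.92 times the level of Mmp14 in the knockout library and 3.1 times in the PyMT library, and Timp2 was 2.88 times the level of Mmp2 in the knockout library and 4.53 times in the PyMT library. For Timp1 and Mmp9 the values went the other way, with Timp1 at 29.9 times the level of Mmp9 in the knockout library and 18.0 times in the PyMT library. Mmp9 had only 27 counts (0.42 FPKM) in the knockout library. The counting intervals of the count ratios overlapped in part (Timp1 0.37 to 0.521, Mmp9 0.164 to 0.401). Such an overlap by itself neither shows nor excludes a difference beyond counting error. With 1 library per group this direction stays uncertain. Timp3 was at 0.479 of the level of Adam17 in the knockout library and at 2.63 times that level in the PyMT library, the order of the 2 genes being opposite in the 2 libraries. These are ratios of messages, and protein or enzyme activity was not measured. Fibroblasts make Timp2, Mmp2 and Mmp14 in abundance, and the fibroblast markers listed above had a median log2 ratio of 0.14, with none of 10 at least 2-fold lower and Lum at least 2-fold higher on the log2(FPKM + 1) scale. Dpt was past 2-fold in counts, with 18 counts in the knockout library and 54 in the PyMT library (0.338, 0.187 to 0.586). The part of fibroblasts in these ratios was not tested.

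**Figure D3:**
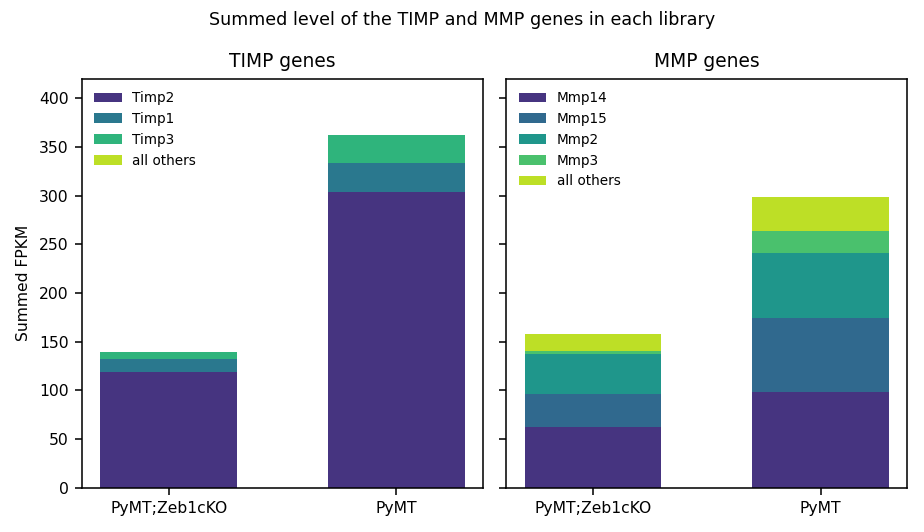
Summed FPKM of the TIMP genes (left panel) and the MMP genes (right panel) in the PyMT;Zeb1cKO library and the PyMT library, with the leading genes as stacked segments and 1 library per group. The TIMP bar stands at 139.6 FPKM in the PyMT;Zeb1cKO library and 362.6 FPKM in the PyMT library, and the MMP bar at 158.0 FPKM and 298.5 FPKM in the same order.

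The remaining MMP genes were lower in level and went both ways. Mmp16 (MT3-MMP) had 20 counts in the knockout library and 192 in the PyMT library, a count ratio of 0.106 (0.0631 to 0.168), close to those of Mmp3 and Mmp13. Mmp9, a gelatinase of neutrophils, macrophages and tumour cells, had 27 counts in the knockout library and 105 in the PyMT library. Its count ratio of 0.261 (0.164 to 0.401) was past 2-fold, although its log2(FPKM + 1) ratio of -0.88 was not, and the neutrophil markers were lower beside it as given for Mmp8. Mmp11 (stromelysin-3), an MMP of stromal cells around carcinomas, was at 5.28 FPKM in the knockout library and 8.48 FPKM in the PyMT library. Mmp11 shares 155 exonic bases with Chchd10 on the opposite strand, and Chchd10 was at 141.1 FPKM in the knockout library and 74.76 FPKM in the PyMT library, so that antisense reads may enter the Mmp11 count where strand was not used. Mmp23, an MMP anchored by its N-terminus (3.1 FPKM in the knockout library and 3.99 FPKM in the PyMT library), and Mmp19 (1.87 and 2.09 FPKM in that order) had count intervals that included 1. The counts of Mmp19 were not whole, and it shares 789 exonic bases with Tmem198b on the opposite strand. Mmp24 (MT5-MMP), best known from neurons, was the 1 MMP gene of the 12 above the FPKM limit with a positive log2 ratio, at 3.32 FPKM in the knockout library and 2.13 FPKM in the PyMT library. The glycosylphosphatidylinositol-anchored enzymes Mmp17 and Mmp25 did not reach an FPKM of 1 but had higher counts, 72 in the knockout library and 29 in the PyMT library for Mmp17 and 19 and 6 in that order for Mmp25; both were named after their values were seen.

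The ADAM sheddases split, with Adam10 and Adam17 higher and Adam8, Adam9, Adam15 and Adam19 lower in the knockout library. Adam10, the main sheddase of Notch receptors and E-cadherin, was at 21.81 FPKM in the knockout library and 14.86 FPKM in the PyMT library, a count ratio of 1.47 (1.38 to 1.58). Adam17, which releases TNF and several EGF receptor ligands, was at 16.39 FPKM in the knockout library and 11.09 FPKM in the PyMT library, a count ratio of 1.48 (1.37 to 1.61). Both lay within 2-fold, and both intervals were above 1. Adam17 shares 311 exonic bases with Iah1 on the opposite strand (23.22 FPKM in the knockout library and 20.9 FPKM in the PyMT library). Adam8, a protease of leukocytes and of invasive breast tumours, was the 1 ADAM gene past 2-fold above the FPKM limit, with 132 counts in the knockout library and 575 in the PyMT library and a count ratio of 0.233 (0.191 to 0.282). The pan-leukocyte markers had a median log2 ratio of -0.01 and none of 5 past 2-fold, while the neutrophil markers were lower as stated. Adam15, the most abundant ADAM gene per length in both libraries, was at 26.92 FPKM in the knockout library and 39.44 FPKM in the PyMT library. Adam9 was at 10.43 FPKM in the knockout library and 18.07 FPKM in the PyMT library, and Adam19, a sheddase of neuregulin, at 1.43 FPKM and 2.49 FPKM in that order.

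Among the ADAMTS genes, several that cut proteoglycans were lower, whereas Adamts10, Adamts17 and Adamts18 were higher in the knockout library. Adamts1, which cuts versican and aggrecan, had 86 estimated counts in the knockout library and 788 in the PyMT library, a count ratio of 0.111 (0.0875 to 0.138). Adamts15, a versican-cleaving relative, had 144 counts in the knockout library and 697 in the PyMT library, a ratio of 0.21 (0.174 to 0.251). Adamts4, an aggrecanase, had 47 counts in the knockout library and 120 in the PyMT library, past 2-fold in counts (0.397, 0.277 to 0.561) but not on the log2(FPKM + 1) scale. The other proteoglycan-cleaving genes Adamts5, Adamts8 and Adamts9 stayed under an FPKM of 1 in both libraries and within 2-fold in counts, and Adamts20 had 4 counts in the knockout library and 3 in the PyMT library. Adamts9, with 110 counts in the knockout library and 109 in the PyMT library, thus did not follow Adamts1.

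Adamts18 had the highest ratio of the 32 genes. Adamts18 (chromosome 8, 113697123 to 113849343), a secreted protease whose loss in mice alters branching organs including the mammary gland, had 413 counts (3.95 FPKM) in the knockout library and 19 counts (0.18 FPKM) in the PyMT library. Its count ratio was 22.0 (13.9 to 37.0) and its log2 ratio 2.07. Its closest paralog Adamts16 was lower in counts, with 13 counts in the knockout library and 31 in the PyMT library. Adamts10 (chromosome 17, 33523646 to 33553782), whose human counterpart acts on fibrillin microfibrils, was at 15.75 FPKM in the knockout library and 6.32 FPKM in the PyMT library, a count ratio of 2.51 (2.27 to 2.78). The counts of Adamts10 were not whole numbers, which arise where reads fit more than 1 gene, so its ratio is uncertain. Adamts17, another gene of the fibrillin matrix in humans, was under an FPKM of 1 in both libraries, with 117 counts in the knockout library and 24 in the PyMT library and a ratio of 4.94 (3.17 to 8.02). Adamts17 and Adamts16 were named after their values were seen.

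The procollagen N-proteinases differed among themselves. Adamts2, which trims fibrillar procollagens, was lower, at 5.66 FPKM in the knockout library and 12.66 FPKM in the PyMT library, with a count ratio of 0.448 (0.413 to 0.486). Its relative Adamts14, named after its values were seen, had 83 counts in the knockout library and 41 in the PyMT library (2.05, 1.4 to 3.06), and Adamts3 had 118 and 150 counts in that order. The fibrillar collagen genes Col1a1, Col1a2 and Col3a1 of the fibroblast marker list were within 2-fold, with log2 ratios of 0.17, 0.44 and 0.58. Adamts7, which cuts cartilage oligomeric matrix protein, was at 4.35 FPKM in the knockout library and 6.37 FPKM in the PyMT library. Adamts13, the von Willebrand factor protease, was at 2.29 FPKM in the knockout library and 1.3 FPKM in the PyMT library, with counts that were not whole in the knockout library. Of the ADAMTS-like genes, which lack the protease domain, Adamtsl4 was lower, at 4.81 FPKM in the knockout library and 11.28 FPKM in the PyMT library (0.426, 0.378 to 0.481). Adamtsl5 was at 0.59 FPKM in the knockout library and 1.19 FPKM in the PyMT library, and Adamtsl2 at 2.86 and 2.6 FPKM in that order. The log2 ratio of Adamtsl2 was 0.10 and was lost after scaling by the median ratio or by TMM factors.

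**Figure D4:**
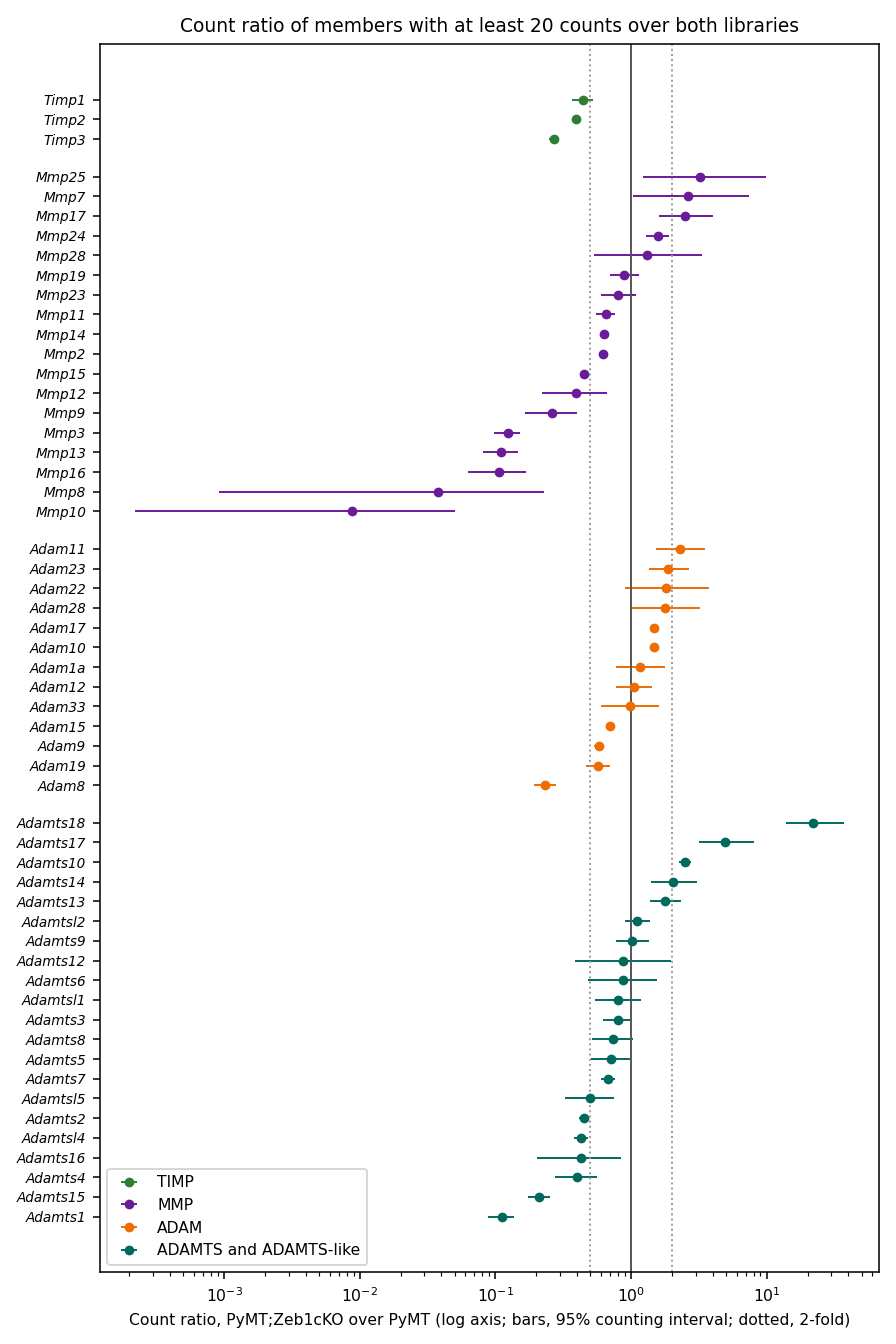
Count ratio of the PyMT;Zeb1cKO library over the PyMT library (log axis) for the 55 genes with at least 20 counts over both libraries, by family, with 95% counting intervals that cover counting error only. Of these, 18 lie at or below a ratio of 0.5 and 8 at or above 2, from 0.00882 for Mmp10 to 22.0 for Adamts18.

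The other 32 genes stayed under an FPKM of 1 in both libraries, with values of up to 0.95 in the knockout library and 0.94 in the PyMT library. Among them 17 had a higher FPKM and 14 a lower one in the knockout library. By counts, 23 of the 32 had at least 20 over both libraries. Of these 23, 6 were at least 2-fold higher, 3 at least 2-fold lower and 14 within 2-fold. Of all 14047 genes with that many counts, at any FPKM, 16.3% were higher and 12.3% lower by this rule. The 3 of the 32 genes with the most counts were Adamts3 and Adamts9, given above, and Adam12. Adam12, a protease of stromal and tumour cells, had 89 counts in the knockout library and 86 in the PyMT library. Adam11, Adam22 and Adam23, which lack a working protease site and are known from neurons, had count ratios of 2.29 (1.52 to 3.51), 1.81 (0.906 to 3.77) and 1.88 (1.35 to 2.66). Adam1b, Adam3, Adam21 and Adam30, known from the male germ line, had at most 2 counts in either library. Adam3 and Adam30 were not listed for the PyMT library, nor Adam1b for the knockout library. Adam28, Adam33, Adam1a, Mmp28, Adamts6, Adamts12 and Adamtsl1 had at least 20 counts over both libraries and lay within 2-fold. Adam4 had 14 counts in the knockout library and 3 in the PyMT library, and Adamtsl3 had 1 and 15 counts in that order.

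Of the genes that activate or inhibit these enzymes or help them to mature, 23 reached an FPKM of 1, and in the knockout library 12 of these were lower by 2-fold or more and none was higher. Together with other metzincins, their enhancers and the substrates of ADAMs, 52 genes of 5 lists with 56 genes were found. Of these, 43 reached an FPKM of 1, with 18 at least 2-fold lower and 1 higher. Of all 12653 genes with such a level, 8.78% were at least 2-fold lower and 10.2% at least 2-fold higher. The median log2 ratio was -0.71 for the 43 genes and 0.13 for all 12653. Of 9 convertases and plasminogen activators, 4 were at least 2-fold lower. Plaur, the receptor that holds urokinase at the cell surface, was at 2.96 FPKM in the knockout library and 21.44 FPKM in the PyMT library, and urokinase itself (Plau) at 6.07 FPKM and 17.3 FPKM in that order. The convertases Pcsk7 and Pcsk5 had the highest log2 ratios of this list, at -0.35 and -0.44. All 5 inhibitors and clearance factors other than TIMPs had negative log2 ratios, and 3 were past 2-fold. The broad protease inhibitor A2m was at 1.97 FPKM in the knockout library and 21.21 FPKM in the PyMT library. Serpine2 and the clearance receptor Lrp1 had the highest log2 ratios of that list, at -0.68 and -0.95.

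The partners of the 2 higher sheddases were not higher with them. Of 9 ADAM maturation factors and MMP inducers, 5 were at least 2-fold lower and none higher (all genes, 8.78% lower and 10.2% higher). The lowest were Tspan33, a tetraspanin partner of Adam10, at 11.73 FPKM in the knockout library and 39.9 FPKM in the PyMT library, and the MMP inducer Bsg (basigin) at 509.4 FPKM and 1417 FPKM in that order. The iRhom gene Rhbdf2, whose product brings Adam17 to the surface, was at 21.36 FPKM in the knockout library and 52.62 FPKM in the PyMT library, named after its values were seen. The Adam10 partners Tspan15 and Tspan14 had the highest log2 ratios of the list, at -0.09 and -0.21. Of 17 substrates known to be shed by ADAMs, 29.4% (5) were at least 2-fold lower and 5.88% (1) higher, beside the same shares of all genes. The EGF receptor ligand Hbegf was at 1.04 FPKM in the knockout library and 19.96 FPKM in the PyMT library, and Areg at 0.81 FPKM and 7.41 FPKM in that order. Egf, at 4.26 FPKM in the knockout library and 0.86 FPKM in the PyMT library, was the 1 higher substrate on the log2(FPKM + 1) scale, and Notch1 followed with a log2 ratio of 0.56. The neuregulin receptor Erbb4, named after its values were seen, stayed under an FPKM of 1 but had 69 counts in the knockout library and 5 in the PyMT library (95% counting interval of the ratio 5.72 to 44.5). Among the other metzincins and their enhancers, the procollagen C-proteinase Bmp1 was at 20.08 FPKM in the knockout library and 54.72 FPKM in the PyMT library. Its enhancers Pcolce and Pcolce2 had log2 ratios of 0.03 and 0.79.

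Other marker lists also differed between the libraries, and their part in the ratios above was not tested. All 6 skeletal muscle markers were at least 2-fold lower, summing to 2.88 FPKM in the knockout library and 221.1 FPKM in the PyMT library. The 7 endothelial markers summed to 42.94 FPKM in the knockout library and 74.56 FPKM in the PyMT library, with Cldn5 the 1 of 6 past 2-fold on the log2(FPKM + 1) scale and Emcn also past it in counts, with 68 in the knockout library and 156 in the PyMT library (0.442, 0.328 to 0.591). The 5 epithelial markers summed to 2207 FPKM in the knockout library and 4576 FPKM in the PyMT library, with Krt18 and Krt19 at least 2-fold lower. The 6 basal and myoepithelial markers summed to 482.6 FPKM in the knockout library and 772.9 FPKM in the PyMT library, with Trp63 at least 2-fold higher and Oxtr past 2-fold in counts alone (3.21, 2.39 to 4.35). Adipocyte (15.89 FPKM in the knockout library and 22.95 FPKM in the PyMT library) and cartilage or bone markers (5.66 and 13.8 FPKM in that order) were low. Col2a1, most of the latter sum, was at least 2-fold lower, at 4.57 FPKM in the knockout library and 11.62 FPKM in the PyMT library. Adipoq, Acan and Ibsp were at 0 in the knockout library and had 4, 3 and 2 counts in the PyMT library. Lep and Sp7 were at 0 in the PyMT library and had 1 and 16 counts in the knockout library.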

How the data were processed

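RNA of EpCAM-positive tumour cells was enriched for messenger RNA on oligo(dT) beads and sequenced as DNA nanoballs, per the labels' protocols. The authors deposited, for each library, an expected count, an FPKM value and a length per gene, per the file headers. The submitters' processing notes name RSEM 1.2.8, Bowtie2 2.2.5, HISAT2 2.1.0, DESeq and the mm10 build, without roles. The annotation and the use of strand are not stated there. The tables list genes above 0, and a gene missing from 1 table was counted as 0.

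The log2 ratio is log2(FPKM + 1) of the knockout library minus that of the PyMT library, described for genes that reached an FPKM of 1 in either library. Count ratios used rounded expected counts over library totals, with exact 95% Clopper-Pearson intervals that cover counting error only. No ratio is given where both libraries have at most 3 counts. A difference of 2-fold is a rule of size, since 1 library per group allows no test. Members, lists and motifs were chosen with earlier results of these data known. Every member with an FPKM of at least 1 is named, with up to 2 highest and 2 lowest genes of each pathway list. A gene of 1 pathway list that this rule picks is not reported here. Positions and promoters are from RefSeq (GRCm38.p6) by Entrez ID, and exon overlaps from GENCODE (GRCm38). Exons of 18 of the 64 genes overlap another annotated gene, so their counts may hold reads of that gene where strand was not used. The planned search of protein motifs was not run. The steps were tested on simulated data. Alternatives were another pseudocount, other scalings, other filters and other folds. TMM factors came from edgeR 4.0.16 in R 4.3.3, and all else from Python 3.11.15 (matplotlib 3.10.9, scipy 1.17.1, pandas 2.3.3, numpy 2.4.6).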

Additional observations from a re-analysis of the deposited data

How the results depend on the processing

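The 13 genes at least 2-fold lower and the 2 higher ones stayed so with a pseudocount of 0.1 and with each other scaling. These settings gave 13 to 15 lower genes and 2 higher ones. Of all 12653 genes, they gave 10.3% to 11.8% lower and 7.64% to 14.7% higher. Scaling by the median ratio or by TMM factors moved the median of all genes by over 0.1, to 0.01. TPM moved it from 0.13 to 0.09. A smaller pseudocount can only widen a log2 ratio of FPKM values, and these scalings mostly lower it. The lower genes were thus bound or likely to stay lower, and the scalings put only the 2 higher genes to a test. The members' median, -0.68 as reported, was -0.84 with a pseudocount of 0.1, -0.81 with the median ratio, -0.78 with TPM and -0.90 with TMM factors. It was -1.06 with an FPKM of at least 5, -0.71 without genes whose counts are not whole, -0.11 with no filter on low values (all genes, 0.06), -0.69 when the mean FPKM had to reach 1 and -0.45 by count ratio, the last 2 being chosen after seeing the data. The number of higher genes was 1 with an FPKM of at least 5 (without Adamts18) and 1 without genes whose counts are not whole (without Adamts10). It was 1 at 3-fold (where 7 were lower) and 8 by count ratio. The number of lower genes was 11 with an FPKM of at least 5, 12 without genes whose counts are not whole and 18 by count ratio. Of 128 single-gene values under another pseudocount or scaling, 2 changed sign, both of Adamtsl2. A pseudocount cannot change a sign, and the scalings moved the median of all genes too little to turn a gene past 2-fold. That no such gene changed sign was therefore fixed in advance. Sizes did change: with a pseudocount of 0.1, the log2 ratio of Mmp16 went from -1.32 to -2.77 and that of Adamts18 from 2.07 to 3.85. No paired analysis was possible because each group has 1 library. Low counts limit Mmp10, Mmp8, Mmp7 and Mmp25.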
